A study of Mus musculus with 30 samples.

Results

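Dorsal pancreas of NMRI mouse embryos was profiled and compared between embryonic day 16.5 (e16.5) and embryonic day 15.5 (e15.5), 1 day apart, on 12 of the 30 arrays of a series that covers 5 daily stages from e12.5. The arrays were chosen by their titles, 2 per stage on each of the 3 chips (A, B and C) of the Affymetrix Murine Genome U74 version 2 set. Both groups were unmanipulated embryos of 1 outbred strain. Dorsal pancreata of a litter were pooled, and both arrays of a stage and chip are labelling reactions from 1 pool. The p-values therefore measure the spread of labelling and hybridization, and stage and pool cannot be told apart.

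The pancreas is built from acinar cells, which make digestive enzymes and store them as inactive zymogens in granules, from ducts, and from hormone-producing islet cells. In this period of mouse development, often called the secondary transition, acinar cells differentiate in large numbers, endocrine cells arise from Neurog3-expressing progenitors, and the epithelium branches within a mesenchyme that also holds vessels, nerves and blood cells. In whole tissue, fewer cells of a type and less RNA per cell cannot be told apart. The label was borne out by the pancreatic markers: on log2 scale chymotrypsinogen Ctrb1 was at 14.08 and Ins2, an insulin gene, at 11.88 on average at e15.5.

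The 2 labelling reactions of a stage correlated at 0.9957 to 0.998 on every chip, and 0 probe sets differed 2-fold between them. The median absolute change between stages was 0.1437 on chip A, 0.1217 on chip B and 0.0888 on chip C, on the log2 scale, against median differences of 0.0663 to 0.0907 between reactions. A probe set was called when the limma p-value, adjusted by the Benjamini-Hochberg method over all 36701 probe sets, was under 0.05 and the change was at least 2-fold. By this rule 79 probe sets rose (0.215% of those tested) and 42 fell (0.114%). With 1 probe set per gene, 50 of 15964 genes rose (0.313%) and 21 fell (0.132%). With no fold minimum, 1470 genes were higher (9.21%) and 2705 lower (16.9%) at e16.5. Below, rose and fell are used for called genes, and higher and lower for differences that passed the adjusted p alone. The median change of all genes was -0.0036. Counts in the gene lists below are to be read beside these shares of all genes. At the 2-fold rule, a short list would often hold 0 called genes.

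**Figure D1:**
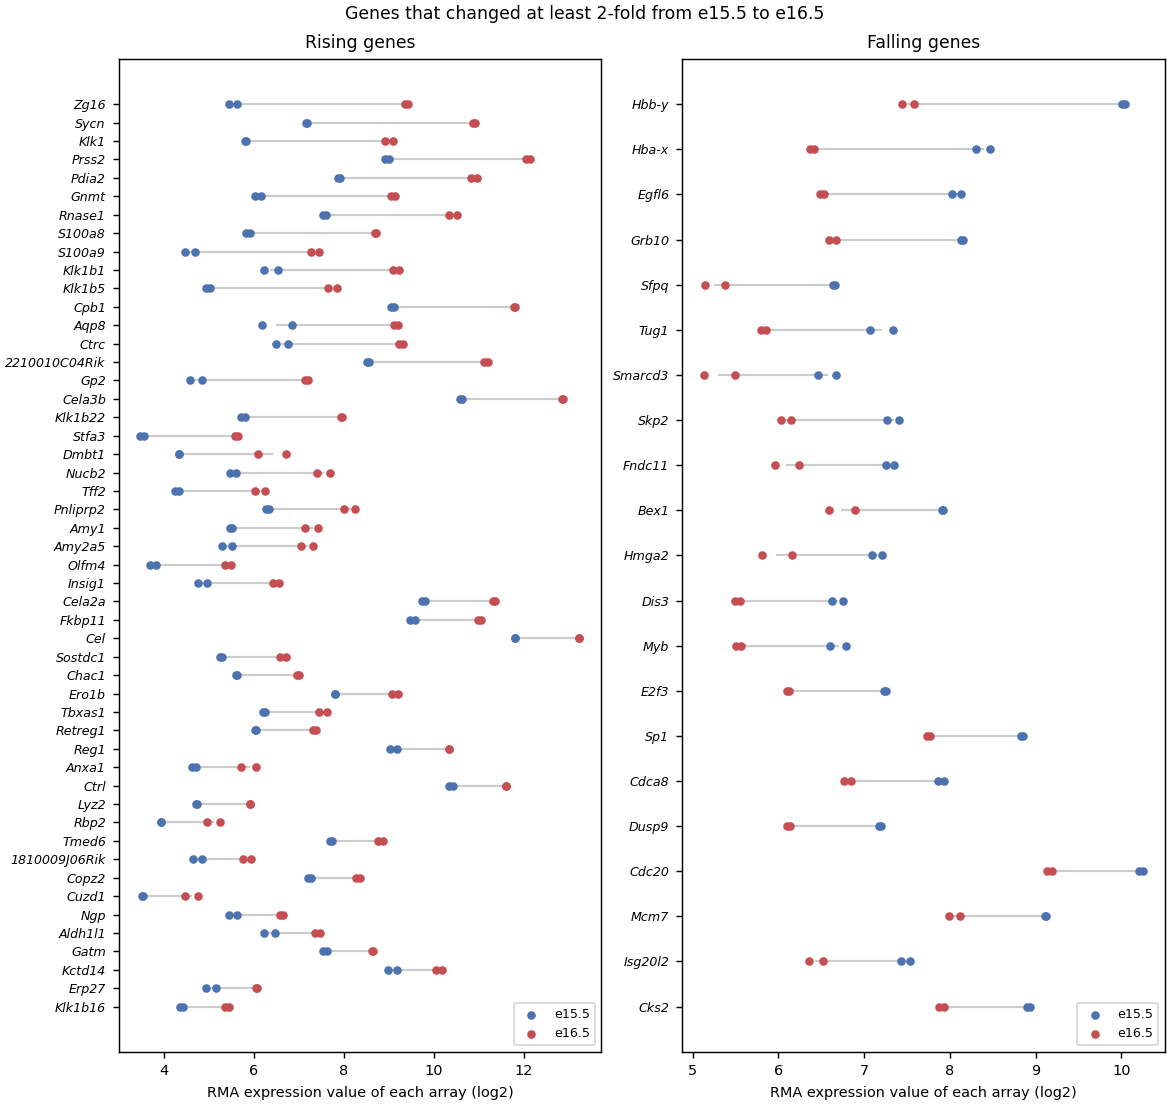
Log2 expression value of each array (x axis) for the 50 rising genes (left) and the 21 falling genes (right), with the 2 arrays of e15.5 in blue and of e16.5 in red and a grey line between the stage means. Zg16 and Hbb-y head the 2 panels. The arrays of the 2 stages do not overlap for any gene shown. This was fixed in advance, as reactions of a stage differed by under 2-fold and called genes by at least 2-fold.

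Products of acinar cells made up much of the rise. Of the 50 rising genes, 23 belong to the lists of digestive enzymes and of zymogen granule and other acinar products. Among 19 digestive enzyme genes measured, 12 rose and 0 fell, with a median change of 1.57. Among 24 genes of granules and other acinar products, 11 rose and 0 fell, with a median of 0.685. Background rates are the 0.313% and 0.132% given above. The lists were chosen with earlier results of these data known, so these counts describe the rise and do not test it.

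The largest rise was that of Zg16, a lectin-like protein of the zymogen granule membrane (chromosome 7, 127050156 to 127052675, GRCm38.p6). Its log2 values were 5.61 and 5.44 at e15.5 and 9.35 and 9.43 at e16.5, a change of 3.86 ± 0.07 (SE) or 14.5-fold (limma adjusted p = 9.28e-11). Both e16.5 arrays lie far above both e15.5 arrays, and the e15.5 mean was below the median of its chip. Sycn, syncollin, a granule protein that binds the granule membrane, went from 7.15 and 7.18 to 10.87 and 10.92, a change of 3.74 ± 0.08 (limma adjusted p = 1.65e-10). Gp2, the main glycoprotein of the granule membrane, was named after its values were seen. It went from 4.84 and 4.58 to 7.14 and 7.21, a change of 2.46 ± 0.12. Pdia2, a protein disulfide isomerase of the pancreas, went from 7.92 and 7.86 to 10.96 and 10.83. This Pdia2 probe set is of a family design that can detect several genes, and a second, dim one differed by 0.03. Gnmt, a glycine methyltransferase abundant in exocrine pancreas and liver, went from 6.03 and 6.16 to 9.13 and 9.04. The stages do not overlap for these genes, which the 2-fold minimum and the close reactions fix in advance.

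Among the enzymes, Prss2, a trypsinogen, went from 8.92 and 9.001 to 12.13 and 12.06, a change of 3.14 ± 0.06 or 8.80-fold (limma adjusted p = 9.28e-11). Rnase1, the pancreatic ribonuclease, went from 7.54 and 7.60 to 10.52 and 10.33, a change of 2.86 ± 0.09. Cpb1, carboxypeptidase B, went from 9.12 and 9.05 to 11.80 and 11.77, a change of 2.70 ± 0.07. The e16.5 arrays lie above the e15.5 arrays for each of these 3 enzymes, as they must for any called rise. Ctrc, chymotrypsin C, rose by 2.63 ± 0.11, and its other 2 probe sets rose by 2.20 and 1.88. The amylase genes rose less than these enzymes, but by more than the digestive enzyme list's median of 1.57. Amy2a5 went from 5.28 and 5.51 to 7.30 and 7.03, a change of 1.77 ± 0.19. Amy1, named after its values were seen, rose by 1.79 ± 0.11. The starch-digesting amylases are close copies of one another, so their probe sets may share signal.

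Klk1, a tissue kallikrein, went from 5.79 and 5.81 to 8.90 and 9.08, a change of 3.19 ± 0.08 (limma adjusted p = 5.64e-10). Its family members Klk1b1 and Klk1b5 rose by 2.78 and 2.77. Kallikreins and trypsinogens are large families of near-identical genes, and the probe sets of Klk1 and Prss2 are of a design that can detect several members, so which member rose is uncertain. Of the 50 rising genes 11, and of the 21 falling genes 6, rest on such family or shared designs.

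Not every enzyme moved. Ctrb1, with the highest e16.5 value on chip A, was at 14.10 and 14.05 and then 14.23 and 14.17, a difference of 0.12 ± 0.06 (limma adjusted p = 0.166). Cpa1, carboxypeptidase A1 and the brightest on chip C, was at 13.28 and 13.30 and then 13.33 and 13.30 (limma adjusted p = 0.875). For Cpa1 the arrays of the stages overlap. Whether these signals are near the upper limit of the scanner was not tested.

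The transcription factors of acinar cells were not among the called genes. Of 13 measured, 0 rose and 0 fell, with a median of 0.072, and 2 were higher and 3 lower by adjusted p alone. Over all genes 0.313% rose and 0.132% fell, so a list of 13 would often hold 0 called genes. The shares higher and lower were 9.21% and 16.9%. Ptf1a, the basic helix-loop-helix factor of the PTF1 complex, was at 8.99 and 9.02 and then 9.15 and 9.17, a difference of 0.15 ± 0.09 (limma adjusted p = 0.246). Bhlha15, also called Mist1, which organises secretory maturation, was at 8.68 and 8.75 and then 8.95 and 8.89, a difference of 0.21 ± 0.08 (limma adjusted p = 0.092). The stages do not overlap for either gene, but neither difference passed the test.

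The promoters of rising acinar genes are shown because the PTF1 complex binds a bipartite site of an E-box (CANNTG) and a TGGGAAA box in many acinar promoters. The sequences are the 250 bases before the start given in the promoter table, from RefSeq (GRCm38.p6), of the 4 largest rising acinar genes with an entry: Sycn (chr7:28540635-28540884, + strand), Klk1 (chr7:44225110-44225359, + strand), Prss2 (chr6:41521526-41521775, + strand) and Pdia2 (chr17:26199088-26199337, - strand). For Pdia2 that start lies within the gene's annotated span, which ends at 26199134, so the last bases of its window, with the final CAGGTG and CACGTG, are inside the gene. Zg16 had no entry in the table. Capitals mark matches to TGGGAAA or CANNTG on either strand.
Sycn: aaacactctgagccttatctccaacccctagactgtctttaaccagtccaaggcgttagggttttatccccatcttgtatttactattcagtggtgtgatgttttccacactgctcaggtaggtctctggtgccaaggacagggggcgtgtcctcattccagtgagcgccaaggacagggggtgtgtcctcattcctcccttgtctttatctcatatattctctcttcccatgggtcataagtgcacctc
Klk1: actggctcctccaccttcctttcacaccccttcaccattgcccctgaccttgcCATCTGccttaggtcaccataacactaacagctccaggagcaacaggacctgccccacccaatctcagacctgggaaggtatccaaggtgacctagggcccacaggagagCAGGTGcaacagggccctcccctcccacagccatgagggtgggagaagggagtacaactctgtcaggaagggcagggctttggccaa
Prss2: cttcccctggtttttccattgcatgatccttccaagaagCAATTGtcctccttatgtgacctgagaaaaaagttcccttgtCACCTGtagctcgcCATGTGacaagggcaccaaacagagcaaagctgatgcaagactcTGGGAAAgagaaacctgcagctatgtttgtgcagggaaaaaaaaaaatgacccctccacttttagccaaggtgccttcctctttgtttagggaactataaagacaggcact
Pdia2: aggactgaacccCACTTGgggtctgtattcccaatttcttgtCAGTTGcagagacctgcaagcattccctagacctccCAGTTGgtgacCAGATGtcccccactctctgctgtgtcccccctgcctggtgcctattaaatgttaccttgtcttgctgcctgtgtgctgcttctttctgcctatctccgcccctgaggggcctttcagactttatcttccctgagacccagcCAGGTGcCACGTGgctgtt
The window of Prss2 holds 1 TGGGAAA box and 3 E-boxes, that of Klk1 0 and 2, that of Pdia2 0 and 6, and that of Sycn 0 of each. Over the 18 rising acinar genes with an entry, 4 windows (22.2%) hold a TGGGAAA box and 15 (83.3%) an E-box, against 6.8% and 66.2% of the 32851 promoters in the table. These are counts of letters and not of bound sites.

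Rising acinar genes differed in how much they had gone up in the day before. The step from e15.5 to e16.5 was compared with the step from e14.5 to e15.5 in the same fit, and the e15.5 pool enters both steps with opposite sign. The difference was signed, as the later change minus the earlier one. Over all genes, it was positive and at least 2-fold for 38 (0.238%) and negative and at least 2-fold for 67 (0.42%). A negative difference can be a rise that slowed or a fall that began, as for Egfl6 at -0.09 and then -1.57, and a positive one can be a fall that ended, as for Tgfbi at -1.17 and then 0.18. Tgfbi was named after its values were seen. Of the 50 rising genes, 23 had a positive difference of at least 2-fold that passed the adjusted p, and 4 a negative one. The rest had differences of either sign that did not meet this rule, such as Cpb1 at -0.62 and Pdia2 at 0.60. Zg16 changed by 0.31 in the day before and by 3.86 now, a difference of 3.55 ± 0.13 (limma adjusted p = 1.85e-07). Its stage means up to e15.5 were low, the last of them below the chip median, so an earlier change could be understated. Prss2 changed by 0.89 and then 3.14, and Ctrc by 0.37 and then 2.63. In contrast, Rnase1 changed by 4.48 in the day before and by 2.86 now, a difference of -1.62 ± 0.16 (limma adjusted p = 0.000252). Cela3b, an elastase, changed by 3.85 and then by 2.27, and Cela2a, another elastase named after its values were seen, by 2.72 and then by 1.57. Cela3b was the brightest on chip B at e16.5, at 12.87. Whether that signal is near the upper limit of the scanner was not tested. These Cela2a values are from chip A, and a second probe set on chip C rose by 2.85 from e15.5 to e16.5, so a smaller step of this gene rests on 1 probe set. The fourth rising gene with a negative difference of at least 2-fold was Kctd14, which is on no acinar list. A second Kctd14 probe set on chip C differed by -0.03. Kctd14 was under 2-fold when arrays were quantile normalized again (0.931), without the second e15.5 reaction (0.940) and without the first e16.5 reaction (0.975). Of the 67 genes with a negative difference of at least 2-fold, 22 had gone up at least 2-fold in the day before. They include Bhlha15, at 1.34 and then 0.21. Asns, which makes asparagine, was at 1.34 and then 0.22, and Edem2, of endoplasmic reticulum quality control, at 1.28 and then 0.28. Both were named after their values were seen.

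**Figure D2:**
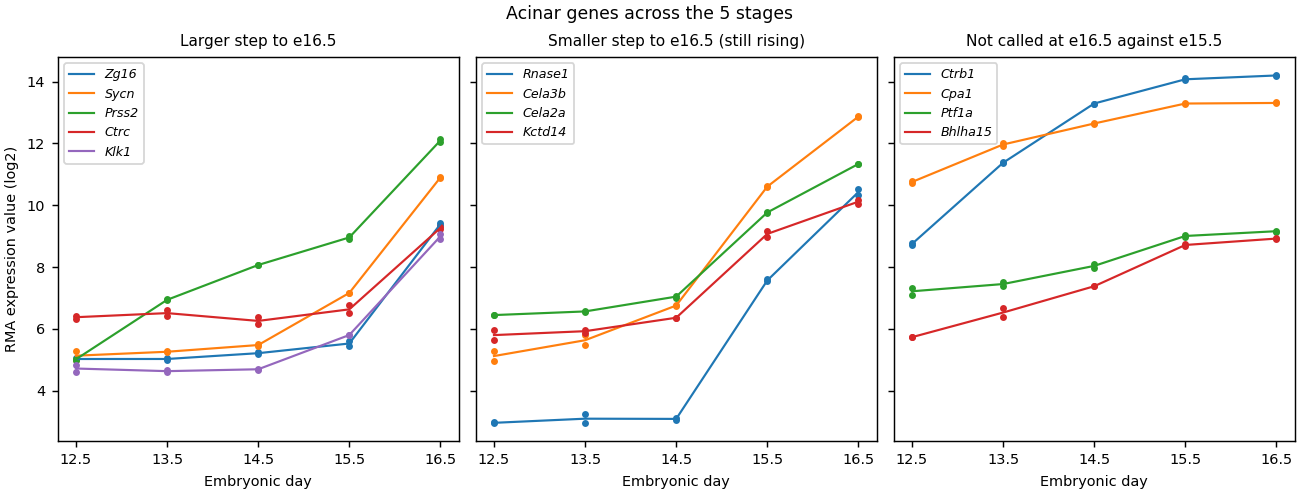
Log2 expression (y axis) by embryonic day (x axis), with a point per array and lines through stage means, for genes with a larger step to e16.5 (left), genes that rose in a smaller step (middle) and genes not called between e15.5 and e16.5 (right). The genes are from the acinar lists, except Kctd14 (middle), which is on no acinar list. Zg16 is at 5.53 at e15.5 and 9.39 at e16.5, whereas Ctrb1 and Cpa1 are above 13 at both stages.

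Few genes of the secretory pathway were called, at 1.9% of the endoplasmic reticulum list and 2.4% of the Golgi list. These shares, of 1 gene each, lie above the 0.313% of all genes that rose. Over all genes 9.21% were higher and 16.9% lower. Of 53 genes of endoplasmic reticulum folding and export, 1 rose and 0 fell, but 29 were higher and 2 lower by adjusted p alone, with a median of 0.255. The gene that rose was Ero1b, an oxidase that drives disulfide formation, which went from 7.81 and 7.80 to 9.20 and 9.06, a change of 1.33 ± 0.08 (limma adjusted p = 1.51e-06). This Ero1b probe set is of a family design, and the other probe sets of the gene, both dim, differed by 0.04 and -0.26. Herpud1, of the degradation pathway for misfolded proteins, was higher by 0.88 ± 0.06, and Hspa5, the chaperone BiP, by 0.42 ± 0.07. Of 41 Golgi and vesicle genes, Tmed6, a cargo receptor, rose by 1.11 ± 0.08, and a second probe set by 1.24; 11 were higher and 5 lower, with a median of 0.073. Among 36 genes of the integrated stress response and amino acid supply, 1 rose: Chac1, which degrades glutathione, went from 5.63 and 5.60 to 7.004 and 6.95, while its transcriptional regulators Atf4 and Ddit3 differed by 0.05 and 0.08. Of 27 genes of cholesterol and fatty acid synthesis, 1 rose: Insig1, which retains the sterol sensor in the endoplasmic reticulum, went from 4.75 and 4.95 to 6.55 and 6.42. A second, dim Insig1 probe set was higher by only 0.25. Chac1 was under 2-fold in the quadratic curve over pool means, at 0.74.

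Islet hormone genes did not reach 2-fold. Of 9 measured 0 rose and 0 fell, 3 were higher and 4 lower, with a median of -0.153. Over all genes 0.313% rose and 0.132% fell, so a list of 9 would often hold 0 called genes. The shares higher and lower were 9.21% and 16.9%. Ins2 was at 11.91 and 11.85 and then 12.39 and 12.29, higher by 0.46 ± 0.06 (limma adjusted p = 0.000404). This Ins2 probe set is of a family design, and a second one was higher by 0.38. Sst, somatostatin, was higher by 0.72 ± 0.10 and Iapp, islet amyloid polypeptide, by 0.48 ± 0.06. Gcg, glucagon, was at 11.76 and 11.79 and then 11.69 and 11.55 (limma adjusted p = 0.152), and Ghrl, ghrelin, differed by -0.50. Hormone genes thus lay on both sides of 0.

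Of 20 endocrine lineage transcription factors, 0 rose and 0 fell, and 0 were higher and 7 lower, with a median of -0.196. Over all genes 0.313% rose, 0.132% fell, 9.21% were higher and 16.9% lower, so 0 calls in a list of 20 is near background. Nkx2-2, needed for beta cell formation, was at 7.64 and 7.55 and then 6.60 and 6.70, a difference of -0.95 ± 0.06 (limma adjusted p = 2.79e-06). Neurog3, which starts the endocrine program, differed by -0.36 ± 0.09 (limma adjusted p = 0.0118). Of 28 progenitor and duct transcription factors, 1 was higher and 15 lower, with a median of -0.238. Pdx1, the pancreatic homeobox factor, differed by -0.63 ± 0.07, Sox9, a progenitor and duct factor, by -0.47 ± 0.08, and Id1, an inhibitor of basic helix-loop-helix factors, by -0.74 ± 0.07. Other Sox9 probe sets above the median of their chip differed by -0.43, which passed, and by -0.17 and 0.09, which did not. Of 37 duct and epithelial structure genes, 1 rose (Anxa1), 7 were higher and 12 lower. The lower ones include the tight junction claudins Cldn6 at -0.81, Cldn3 at -0.61 and Cldn4 at -0.60.

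**Figure D3:**
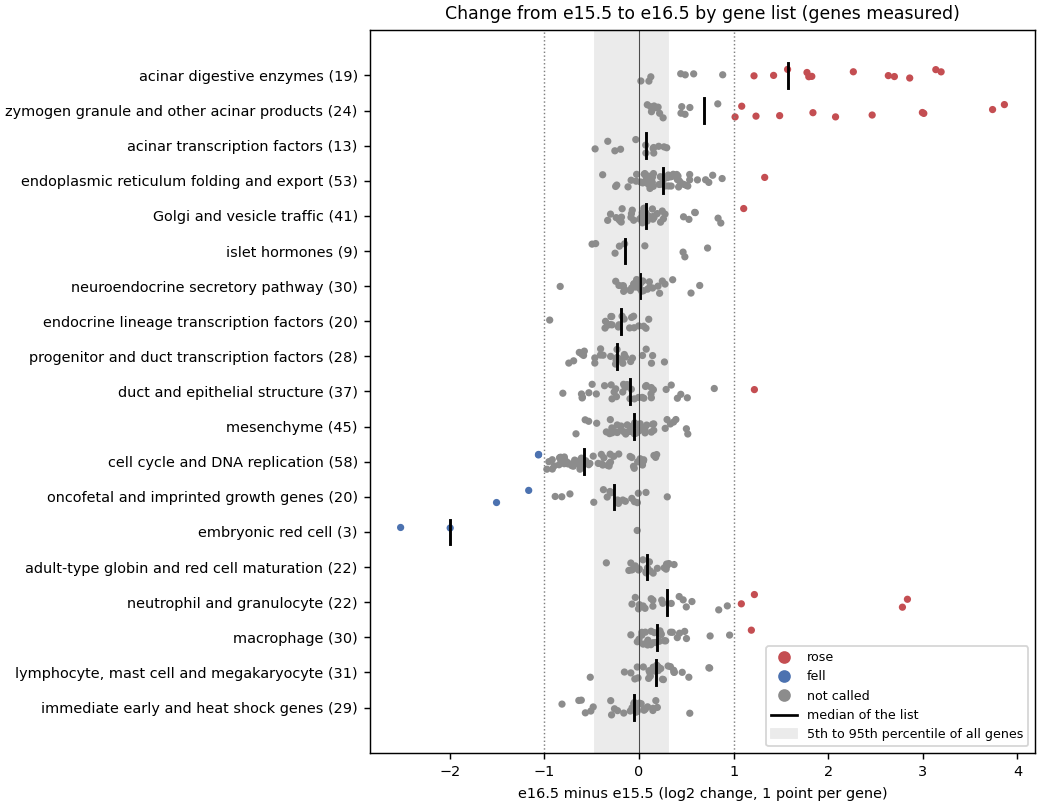
Log2 change from e15.5 to e16.5 (x axis) for each measured gene of 19 lists (y axis, number measured in brackets), red for genes that rose, blue for genes that fell and grey for the rest, with a black bar at each median and a grey band from the 5th to the 95th percentile of all genes (-0.462 to 0.303). The digestive enzyme median is at 1.57 and the cell cycle median at -0.581.

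Most genes of cell division were lower. Of 58 cell cycle and DNA replication genes, 0 rose and 2 fell, and 0 were higher and 45 lower by adjusted p alone, where 16.9% of all genes were lower. The list median was -0.581. Cdc20, an activator of the anaphase-promoting complex, went from 10.21 and 10.25 to 9.14 and 9.19, a change of -1.06 ± 0.07 (limma adjusted p = 3.28e-06). Mcm7, a subunit of the replicative helicase, went from 9.12 and 9.11 to 7.99 and 8.12, a change of -1.06 ± 0.06 (limma adjusted p = 1.11e-06). Both were under 2-fold when arrays were quantile normalized again (-0.99 and -0.94) and in a quadratic curve over the 5 pool means (-0.56 and -0.79), and Mcm7 also without the first e16.5 reaction (-0.998). Pcna, the sliding clamp, differed by -0.84 ± 0.11 and Mki67, a marker of cycling cells, by -0.40 ± 0.07. The inhibitor Cdkn1a was 0.19 ± 0.06 apart (limma adjusted p = 0.0509). Outside the list, the cell cycle genes Skp2, E2f3, Cdca8 and Cks2 fell, by values of -1.25, -1.13, -1.09 and -1.02, of which Cdca8 and Cks2 were named after their values were seen. In the quadratic curve over pool means all 4 were under 2-fold (-0.717, -0.693, -0.715 and -0.583). Cks2 was also under 2-fold when arrays were quantile normalized again (-0.919), without the first e15.5 reaction (-0.999) and without the second e16.5 reaction (-0.986). The second probe sets of Skp2 and E2f3, both dim, differed by -0.21 and -0.09.

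**Figure D4:**
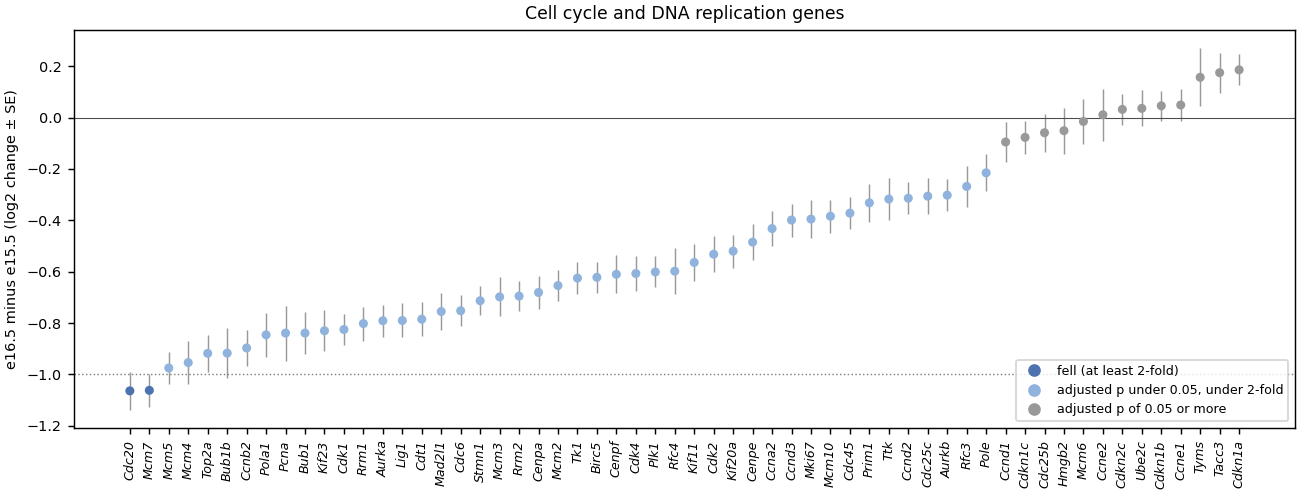
Log2 change from e15.5 to e16.5 with its standard error (y axis) for the 58 cell cycle and DNA replication genes, in order of change. Dark blue marks the 2 genes that fell, light blue lower genes with adjusted p under 0.05 and grey the rest.

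Of 20 oncofetal and imprinted growth genes, 2 fell, 12 were lower and 1 was higher, with a median of -0.262. Grb10, an imprinted inhibitor of growth factor signalling, went from 8.15 and 8.13 to 6.59 and 6.68, a change of -1.51 ± 0.06 (limma adjusted p = 2.79e-08), and a second probe set on chip A fell by 1.15 on the log2 scale, but one on chip C differed by 0.01. Hmga2, a chromatin protein of fetal tissue, went from 7.21 and 7.09 to 5.81 and 6.15, a change of -1.17 ± 0.10, and was just under 2-fold without the first e16.5 reaction (-0.997). Egfl6, a secreted protein with EGF repeats, fell by 1.57 on the log2 scale, from 8.02 and 8.13 to 6.53 and 6.48. For Tug1, Smarcd3, Sp1 and Sfpq, no other probe set of the gene was called, so each call rests on 1 probe set. Of the 36 called genes with over 1 probe set, 11 had another called the same way and 0 had one called the other way. For 10 of the 36, no other probe set was called although an uncalled one was above the median of its chip, as for Smarcd3 at 0.01, Sp1 at 0.06 and Bex1 at -0.07. Of 87 signalling genes 0 were called, 4 were higher and 24 lower, with Smo, the hedgehog transducer, at -0.73. Mesenchyme genes were mixed: of 45, 0 were called, 7 were higher and 13 lower. Among the lower ones were the collagen gene Col1a1 at -0.45 and Hand2, a transcription factor, at -0.67 ± 0.08, and among the higher ones elastin, Eln, at 0.52. A second Hand2 probe set differed by -0.20 (limma adjusted p = 0.233). Of 30 basement membrane and integrin genes 0 were called, 4 were higher and 8 lower. Of 21 endothelial genes 0 were called, 3 were higher and 2 lower. For each list in this paragraph, the shares over all genes are 0.313% rising, 0.132% falling, 9.21% higher and 16.9% lower.

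Blood cell genes moved in both directions. Of 22 neutrophil and granulocyte genes, 4 rose and 0 fell, and 11 were higher by adjusted p alone, with a median of 0.296. Over all genes 0.313% rose, 0.132% fell, 9.21% were higher and 16.9% lower. S100a8, a subunit of calprotectin, went from 5.91 and 5.82 to 8.69 and 8.71, a change of 2.84 ± 0.06 (limma adjusted p = 1.62e-10), and its partner S100a9 from 4.69 and 4.46 to 7.45 and 7.26. The e16.5 arrays of both lie above those of every earlier stage. In the quadratic curve over pool means neither passed (1.56 and 1.54). Ngp, a neutrophil granule protein, rose by 1.08 ± 0.07, and was under 2-fold without the second e15.5 reaction (0.995) and in the curve (0.592). The fourth was Anxa1, which is also on the duct list. Ltf, lactotransferrin, and Camp, cathelicidin, were higher by 0.93 and 0.84. Mpo, Elane and Prtn3, of the granules formed earliest in neutrophil maturation, differed by 0.06, 0.15 and -0.07 and did not pass. Only 6 of the 22 genes were above the median of their chip over all stages. Whether the dim ones could show a change was not tested. Of 30 macrophage genes, 1 rose, Lyz2, a lysozyme, by 1.19 ± 0.09 (0.902 in the curve), and 13 were higher. A second, dim Lyz2 probe set was higher by only 0.35. Of 31 genes of lymphocytes, mast cells and megakaryocytes, 11 were higher and 1 lower, and of 8 of spleen mesenchyme, 3 were higher, among them Madcam1 at 0.74 ± 0.06, whose second probe set differed by 0.08 (limma adjusted p = 0.425). The part of other cells in the pools in these differences was not tested.

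Hbb-y, an embryonic beta-like globin, went from 10.01 and 10.05 to 7.44 and 7.58, a change of -2.52 ± 0.06 (limma adjusted p = 5.64e-10), and Hba-x, the embryonic zeta globin, from 8.47 and 8.30 to 6.37 and 6.41, a change of -1.997 ± 0.07. The third embryonic gene, Hbb-bh1, differed by -0.02, and adult alpha globin Hba-a1 was at 12.70 and 12.68 and then 12.84 and 12.77 (limma adjusted p = 0.188). Of 22 adult-type globin and red cell genes, 0 were called, 6 were higher and 1 lower.

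**Figure D5:**
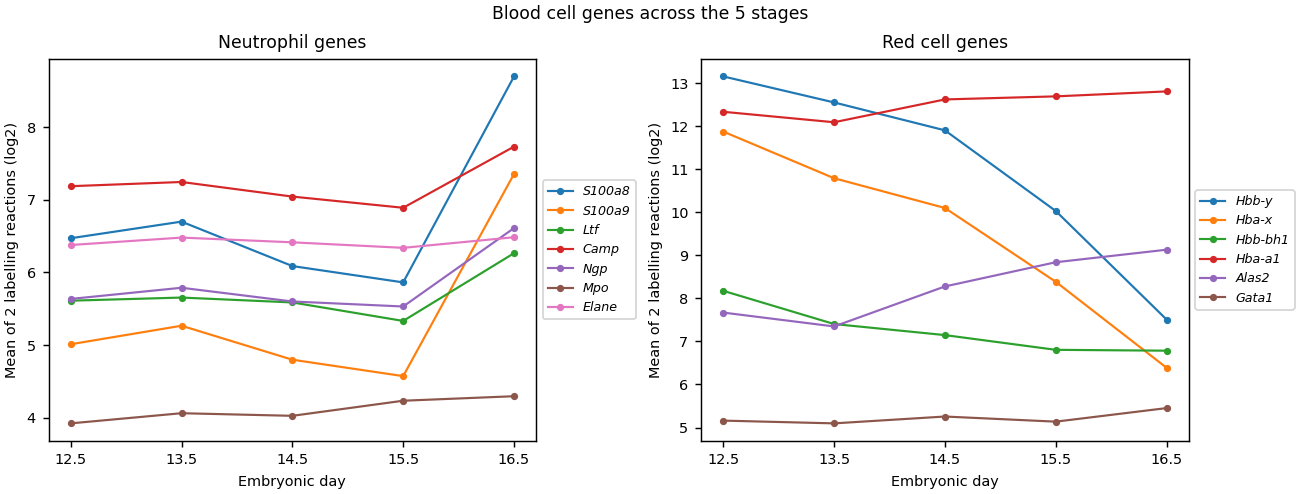
Mean log2 expression of 2 labelling reactions (y axis) by embryonic day (x axis) for neutrophil genes (left) and red cell genes (right). S100a8 and S100a9 turn up at e16.5, while Hbb-y and Hba-x go down at each stage.

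Markers of neighbouring organs gave few calls, at 5.6% of 18 stomach genes and 4.3% of 23 intestine genes, where 0.313% of all genes rose. Tff2, a trefoil factor of stomach mucus that is also on the acinar product list, rose by 1.84 ± 0.09 as the 1 stomach call. Rbp2, a retinol carrier, rose by 1.16 ± 0.09 as the 1 intestine call. Rbp2 was below the chip median at both stages, and its second, dim probe set differed by 0.29 (limma adjusted p = 0.112). Of 27 liver genes 0 were called, 4 were higher and 3 lower, with albumin, Alb, at 0.68 ± 0.08. Over all genes 9.21% were higher and 16.9% lower. Of 29 immediate early and heat shock genes, 0 were called, 1 was higher and 10 lower. The lower ones include the chaperones Hsph1 at -0.81 ± 0.07, Hsp90aa1 at -0.64 and Hspa8 at -0.61, while Fos and Egr1 differed by 0.19 and -0.05 and did not pass.

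Further rising genes lie outside these groups. Aqp8, a water channel of the acinar cell surface, went from 6.18 and 6.84 to 9.11 and 9.21, a change of 2.65 ± 0.15 (limma adjusted p = 9.91e-07). Its e15.5 arrays lie apart from each other but below both e16.5 arrays. The others were named after their values were seen. Nucb2, a calcium-binding precursor of nesfatin, rose by 2.01 ± 0.11, Stfa3, a cysteine protease inhibitor of the stefin family, by 2.11 ± 0.11, and Olfm4, a secreted olfactomedin, by 1.68 ± 0.11. A second, dim Olfm4 probe set was higher by only 0.30. Retreg1, a receptor for autophagy of the endoplasmic reticulum, rose by 1.31 ± 0.07, and its second, dim probe set was higher by 0.44. Aldh1l1, of folate metabolism, and Gatm, which makes the precursor of creatine, rose by 1.07 and 1.05. Aldh1l1 was under 2-fold without the second e15.5 reaction (0.954). Second probe sets of Aldh1l1 and Gatm, both above the median of their chip, were higher by 0.40 and 0.88. In all, 19 of the 50 rising genes were below the median of their chip at e15.5, where no background level is known.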

How the data were processed

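Per the labels' protocols, total RNA of dorsal pancreata pooled by litter was labelled with biotin in 2 reactions per pool. The authors deposited 1 log2 value for every probe set on an array. RMA is the tool named by the submitters' processing notes, with no version, and the log base was inferred from the range of the values. RMA equalizes overall brightness, so a change in total RNA per cell is not seen. Each chip was fitted on its own. No detection calls came with the values, so dim probe sets were kept. Control probe sets for RNA quality were not analysed here. The number of arrays limits the precision.

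Of 36701 probe sets, 29131 had 1 symbol, 724 several and 6846 none in the platform annotation. Coordinates are from RefSeq (GRCm38.p6). Where a gene had several probe sets, the one with the highest mean over all 10 arrays stood for it. Stage was fitted as a factor over the 10 arrays with limma 3.58.1 in R 4.3.3, checked on simulated data. Adjustment ran over the 3 chips jointly, with a threshold of 0.05 and a 2-fold minimum. Errors are standard errors of the fit, from labelling reactions (n = 2 per stage). The members and the 37 gene lists were chosen with earlier results of these data known. Genes were named by rule: the 15 largest rises and falls, up to 4 called members per list (or the largest change), the 5 largest differences from the day before in each direction, and landmarks. The largest rises and falls were taken among called genes whose arrays did not overlap between the stages. Not all genes that meet the rule are described. Other list members are given as examples chosen after their values were seen. Alternatives covered fold minimums, scaling, filters, probe set choice, a curve over pool means, left-out arrays and the replicate number.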

Additional observations from a re-analysis of the deposited data

Results flagged for a closer look

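The following genes had a step from e15.5 to e16.5 that differed from the step of the day before, by limma's test of the difference itself, in which the e15.5 pool enters both steps. The 5 largest positive differences on the log2 scale were 3.55 for Zg16, 3.06 for S100a8, 3.01 for S100a9, 2.26 for Ctrc and 2.25 for Prss2. The 5 largest negative differences were -1.67 for Kctd14, -1.62 for Rnase1, -1.58 for Cela3b, -1.58 for Smpdl3b, a phosphodiesterase-like protein, and -1.52 for Aqp4, a water channel. Smpdl3b went up by 1.198 and then differed by -0.38, and Aqp4 went up by 1.05 and then differed by -0.47. With 2 arrays per group, single arrays were not tested for standing apart.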

How the results depend on the processing

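With no fold minimum, 3050 probe sets and 1470 genes were higher and 4488 and 2705 lower, and the signed difference from the step before was positive for 356 genes and negative for 1110. A 1.5-fold minimum gave 244 rising and 617 falling probe sets and 142 and 380 genes; a 4-fold minimum gave 32 and 4 probe sets and 21 and 1 genes. Above the chip median, 46 probe sets and 31 genes rose. A quadratic curve over the 5 pool means, which smooths a change in 1 step, gave 27 falling probe sets and a call for 40 of the 50 rising and 8 of the 21 falling genes; S100a8 then had 1.56 (limma adjusted p = 0.063), and Aqp4 and Smpdl3b turned to 0.15 and 0.37. With the brightest probe set over the 4 arrays, 50 rising but only 16 falling genes kept their call. Grb10 and Smarcd3 turned to 0.0067 and 0.0080, and Bex1, Tug1 and Sp1 shrank to -0.074, -0.232 and -0.603. Averaging a gene's probe sets on the same chip kept 58 of 71 called genes, 45 rising and 13 falling. Falling genes lost include Sfpq, Dusp9, Myb and Fndc11, at -0.433, -0.203, -0.564 and -0.662. The falling list thus depended more on probe set choice than the rising list. Quantile normalization again kept 64 of 71 called genes and median centring 70. Leaving out 1 array kept 67 to 68 of them, with 82 to 90 rising and 46 to 59 falling probe sets, 48 to 54 rising and 24 to 28 falling genes, and 38 to 42 positive and 67 to 81 negative step differences. For the steps, the left-out arrays, the repeated quantile normalization and the intensity trend were chosen after seeing the data. Same-numbered reactions did not deviate together (correlations of -0.037 to 0.038 between the stages), and with the replicate block all counts were as before (79 and 42 probe sets, 50 and 21 genes, 38 and 67 step differences).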
